A study of Mus musculus with 4 samples.

Results

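Transcription factors that set dendritic cell fates were compared between Ptip-deleted and wild-type osteoclast progenitors of mouse bone marrow. They were chosen by symbol, from textbook roles in plasmacytoid and conventional dendritic cells, with earlier results of these data known. They are 10 of the 18276 genes in the deposited table: Tcf4, Id2, Irf4, Irf8, Batf3, Zbtb46, Spib, Runx2, Zeb2 and Zbtb16. In 2 libraries (Ptip_KO) the cells came from Ptip flox/flox Mx-1Cre mice, which carry the Mx-1Cre transgene and a Ptip gene (symbol Paxip1) whose alleles are floxed. In the 2 WT libraries they came from WT Mx-1Cre mice, so both groups carry Mx-1Cre, a Cre driven by an interferon-inducible promoter that is not restricted to osteoclast progenitors. All mice were of a mixed B6;129 background. Their age and how Cre was induced are not given in the sources used here. The cells were sorted from fresh marrow as negative for B220, CD3 and Mac-1 and positive for CD115, the receptor encoded by Csf1r. Dendritic cell progenitors of the marrow also carry CD115, while mature plasmacytoid dendritic cells of the mouse carry B220.

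Dendritic cells arise from marrow progenitors and divide into plasmacytoid cells, known for making type I interferon, and conventional cells, which present antigen to T cells. The E protein E2-2, encoded by Tcf4, binds DNA as a helix-loop-helix dimer and maintains the plasmacytoid fate. Id2 encodes a helix-loop-helix protein without a DNA-binding region that dimerises with E proteins and keeps them off DNA, and it is needed for type 1 conventional cells. The ratio of Tcf4 to Id2 is therefore read as a balance between the plasmacytoid and conventional fates.

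Paxip1 was at 5.10 and 3.73 CPM in Ptip_KO, against 106 and 103 CPM in WT. CPM here are reads scaled to the effective library size, which is the library size times a normalization factor. Paxip1 was thus low in the libraries labelled Ptip_KO. The table held between 67592972 and 77773478 reads per library, and 3 reads were worth 0.0380 to 0.0428 CPM. A gene without any read may still have an expected count of up to 3 reads, at a confidence level of 95%. Xist stood at 298 CPM and the Y-linked Ddx3y at 0.101 CPM in WT replicate 2, against at most 0.0814 CPM of Xist and at least 69.1 CPM of Ddx3y in the other 3 libraries. None of the 10 factors lies on a sex chromosome. The gene of the sort receptor, Csf1r, averaged 804 ± 30.2 CPM in Ptip_KO, compared with 641 ± 50.3 CPM in WT (SD, n = 2 each). Itgam, which encodes a chain of Mac-1 and shares its sequence with the annotated gene Gm49368, was still at 37.1 ± 2.90 CPM in Ptip_KO, against 40.8 ± 1.75 CPM in WT. Cd3e stood at no more than 0.190 CPM in every library. The B220 epitope is a splice form of Ptprc and cannot be read from counts per gene.

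Across the 10 factors, 1 rose in Ptip_KO (Tcf4), 4 fell (Id2, Irf4, Zbtb46 and Zbtb16), 4 did not pass the test (Irf8, Spib, Runx2 and Zeb2), and Batf3 was below the filter. Tests covered genes that reached 1 CPM in 2 or more libraries, and a gene was called at a limma adjusted p under 0.05 (Benjamini-Hochberg over 12357 genes). Over all tested genes, 6.29% were called, 2.43% higher and 3.86% lower in Ptip_KO. Zbtb46 and Zbtb16 reached 1 CPM in 1 Ptip_KO library each, so they passed the filter through the WT libraries, where they were higher. The series' text calls the replicates independent, but the labels tie none to its own animal, so p-values measure only the spread between these samples. With 1 library left out, limma called 3.66% of genes when Ptip_KO replicate 1 was dropped, 3.85% when its replicate 2 was, 12.1% when WT replicate 1 was and 13.1% when WT replicate 2 was. In these fits the lone library of a group is assumed to vary like the pair of the other. In bulk RNA, fewer cells of a type and less RNA per cell cannot be told apart.

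**Figure D1:**
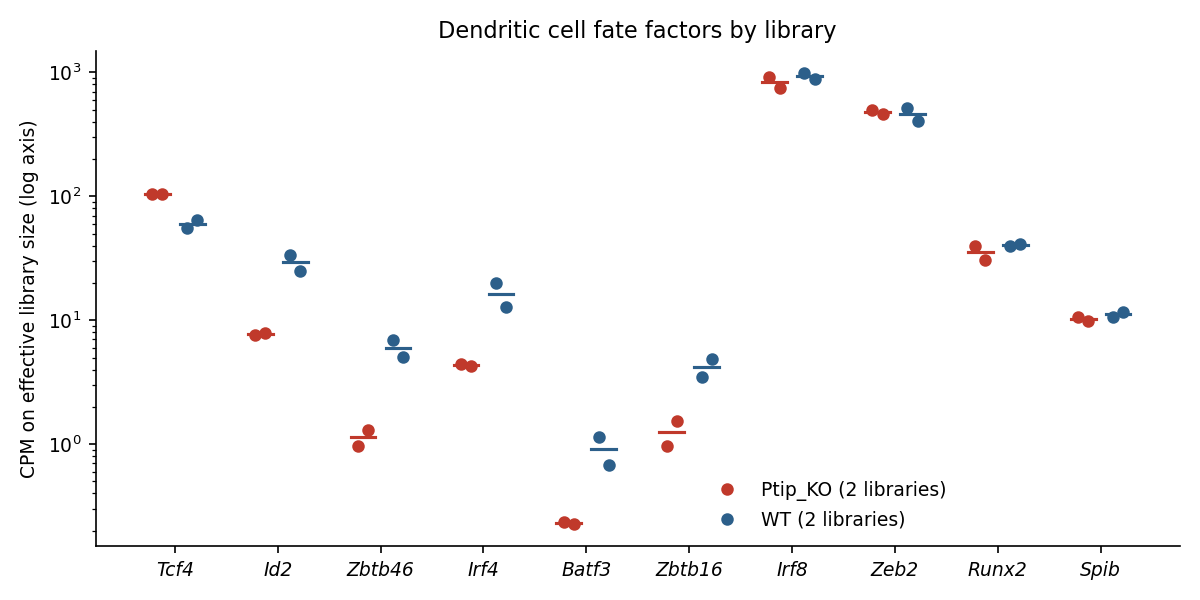
CPM on the effective library size (log axis) of the 10 dendritic cell fate factors in each library, with Ptip_KO in red and WT in blue; points are libraries and bars are means of 2. Tcf4 lies higher in both Ptip_KO libraries, Id2, Zbtb46, Irf4, Batf3 and Zbtb16 lie lower in both, and Irf8, Zeb2 and Runx2 overlap between the groups.

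The promoter windows of the 3 factors that fell in every setting tried are shown, of 8 factors whose RefSeq window was searched, because these genes were lower together in Ptip_KO. Each window runs from 250 bases before to 50 bases after the RefSeq start (GRCm38.p6), 5′ to 3′ on the gene's strand. Capitals mark matches to the E-box CANCTG, the letters that dimers of E proteins such as that of Tcf4 bind, searched on both strands (CAGNTG on the other).
Id2, chr12:25096043-25096342, minus strand: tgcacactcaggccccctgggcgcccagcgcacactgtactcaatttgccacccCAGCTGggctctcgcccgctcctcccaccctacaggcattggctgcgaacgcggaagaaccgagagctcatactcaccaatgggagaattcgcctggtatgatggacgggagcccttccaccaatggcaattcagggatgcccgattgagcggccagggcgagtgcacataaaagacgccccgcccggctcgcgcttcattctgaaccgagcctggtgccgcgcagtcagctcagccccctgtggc
Irf4, chr13:30748983-30749282, plus strand: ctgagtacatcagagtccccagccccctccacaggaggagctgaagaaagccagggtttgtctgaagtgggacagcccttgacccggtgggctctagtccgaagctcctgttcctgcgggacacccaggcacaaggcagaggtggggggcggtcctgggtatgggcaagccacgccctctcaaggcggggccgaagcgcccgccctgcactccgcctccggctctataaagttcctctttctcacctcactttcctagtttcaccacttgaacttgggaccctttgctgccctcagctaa
Zbtb46, chr2:181424339-181424638, minus strand: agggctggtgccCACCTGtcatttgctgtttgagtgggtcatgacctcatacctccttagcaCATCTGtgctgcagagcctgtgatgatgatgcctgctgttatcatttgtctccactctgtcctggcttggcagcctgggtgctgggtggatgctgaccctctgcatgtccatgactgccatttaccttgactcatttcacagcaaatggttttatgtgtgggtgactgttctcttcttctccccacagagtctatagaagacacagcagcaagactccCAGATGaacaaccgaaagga

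The Id2 window held 1 match, CAGCTG at -196 to -191 from the start, the Irf4 window held 0 and the Zbtb46 window held 3. Of all 27025 gene windows of this length, 51.1% held at least 1 such match, so a match is common. The PU.1 core GAGGAA (or TTCCTC) was found once in the Irf4 window, at -19 to -14, and in 28.3% of all windows. The AP-1 site TGANTCA was found once in the Zbtb46 window, at -61 to -55, and in 7.93% of all windows. The Id2 and Zbtb46 windows belong to internal starts, since other GENCODE transcripts of these genes begin further upstream.

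Tcf4 (ENSMUSG00000053477.16), on chromosome 18 at 69343356 to 69689079 (mm10, as all positions here), was at 105 and 104 CPM in Ptip_KO, compared with 55.5 and 64.4 CPM in WT. Both Ptip_KO libraries were above both WT libraries and differed from each other by less than the WT pair did. The mean was 1.74 times the WT mean, and on the log2(CPM + 1) scale used for all fold changes here, which understates changes of low genes, Tcf4 rose by 0.79 with a standard error (SE) of 0.102 (limma adjusted p = 0.0164). Its adjusted p stayed between 4.85e-08 and 0.0423 over 14 alternatives.

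Id2 (ENSMUSG00000020644.9), on chromosome 12 at 25093799 to 25097140, had 7.57 and 7.92 CPM in Ptip_KO, against 33.7 and 24.9 CPM in WT. The 2 Ptip_KO libraries were nearly equal, and the lower WT library was still well above them. Id2 averaged 7.74 ± 0.251 CPM in Ptip_KO, which is 0.264 times the 29.3 ± 6.19 CPM of WT (SD, n = 2 each). It fell by 1.78 on the log2 scale (SE 0.162, limma adjusted p = 0.00673), with adjusted p between 4.23e-20 and 0.0155 over the 14 alternatives.

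The ratio of Tcf4 CPM to Id2 CPM was 13.8 and 13.1 in the Ptip_KO libraries, and 1.65 and 2.59 in the WT libraries. The ranges did not overlap. In the mean of log2 ratios the Ptip_KO libraries were 2.71 higher, a 6.53-fold difference, and each library left out in turn gave between 2.38 and 3.03. An exact permutation test of 2 against 2 libraries, two-sided, gave p = 0.333, the smallest it can give. Per kb of transcript, taken as the median length of each gene's coding GENCODE transcripts, the ratio was 7.49 and 7.09 in Ptip_KO and 0.891 and 1.40 in WT. On this scale Tcf4 was at 44.4 ± 0.249 and Id2 at 6.10 ± 0.198 CPM per kb in Ptip_KO. In WT, Tcf4 and Id2 stood within their spread of each other, at 25.5 ± 2.69 and 23.1 ± 4.87 CPM per kb (SD, n = 2 each). The median length was 2.35 kb for Tcf4, over 24 transcripts, and 1.27 kb for Id2. All exons together cover 27382 bases in Tcf4 and 2438 bases in Id2. Levels per kb, and the sums, shares and orders built on them, therefore depend on the length chosen.

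**Figure D2:**
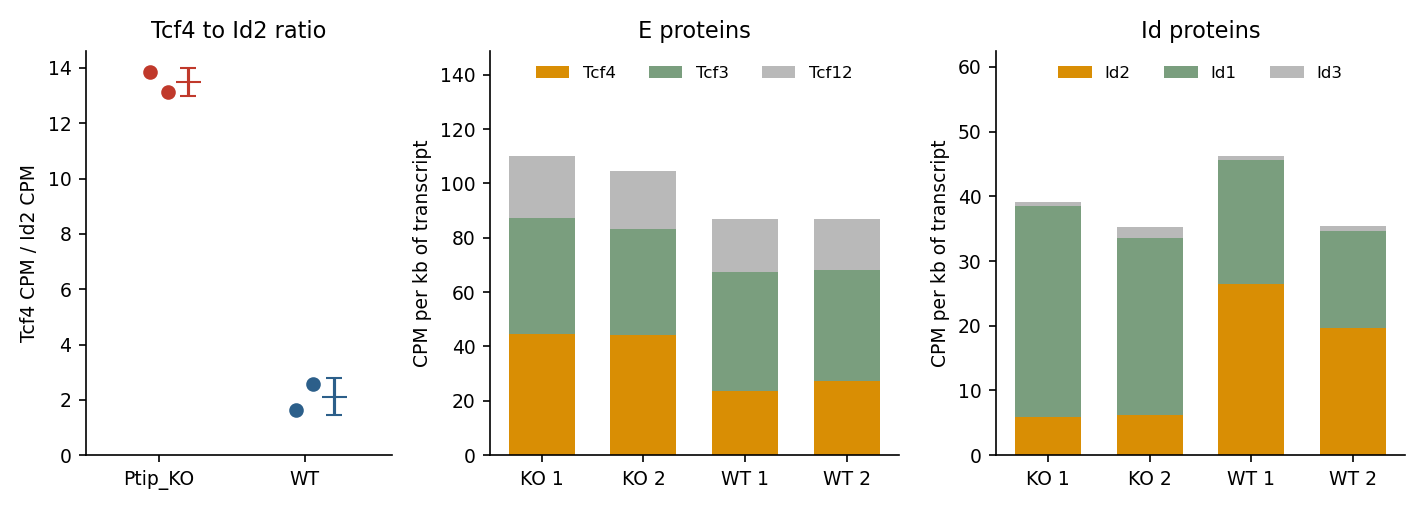
Left, ratio of Tcf4 CPM to Id2 CPM in each library with the mean and SD of 2 (Ptip_KO left, WT right). Middle and right, levels of E protein and Id protein genes in CPM per kb of transcript, stacked for each library: Id2 is the smaller part of the Id bars in Ptip_KO, where Id1 is larger, and Tcf4 is a larger part of the E protein bars.

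Among the 5 tested E and Id protein genes, 2 rose (Tcf4 and Id1) and 1 fell (Id2). Over all tested genes, limma called 2.43% higher and 3.86% lower. Id1, an Id protein of stem and progenitor cells, was at 34.0 and 28.6 CPM in Ptip_KO, against 20.0 and 15.8 CPM in WT. It rose by 0.78 on the log2 scale (SE 0.152, limma adjusted p = 0.0452), and lost the call without Ptip_KO replicate 1 (0.148). Id3 was below the filter, at 0.841 and 2.17 CPM in Ptip_KO, compared with 0.868 and 0.926 CPM in WT. Id4 was not in the table used here. Tcf3, the gene of E2A, was at 116 ± 7.41 CPM in Ptip_KO, against 119.8 ± 6.53 CPM in WT, with a limma adjusted p of 0.834. Tcf12, the gene of HEB, was at 94.8 ± 5.04 CPM in Ptip_KO, compared with 82.8 ± 1.42 CPM in WT (SD, n = 2 each), with an adjusted p of 0.249. The direction of Tcf3 flipped when libraries were rescaled to a common sum.

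Summed per kb, the Id genes came to 39.1 and 35.2 CPM per kb in Ptip_KO and 46.3 and 35.4 CPM per kb in WT. Id2 made up 15.2% and 17.7% of that sum in Ptip_KO, against 57.2% and 55.3% in WT. The 3 E protein genes summed to 110.2 and 105 CPM per kb in Ptip_KO and 86.8 and 86.9 CPM per kb in WT, of which Tcf4 was 40.5% and 42.3% in Ptip_KO and 27.2% and 31.5% in WT. The ratio of E to Id sums was 2.82 and 2.97 in Ptip_KO and 1.88 and 2.45 in WT, a difference of means of 1.34-fold (exact permutation p = 0.333, two-sided, the smallest possible). The difference was smaller for these sums than for the ratio of Tcf4 to Id2 alone.

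Of the factors of conventional dendritic cells, Irf4 and Zbtb46 fell. Irf4 (ENSMUSG00000021356.10, chromosome 13, 30749226 to 30766976), a factor of type 2 conventional cells and of plasma cells, had 4.44 and 4.25 CPM in Ptip_KO, against 19.8 and 12.8 CPM in WT. The groups did not overlap, and the WT libraries differed more from each other than the Ptip_KO libraries did. Irf4 fell by 1.66 on the log2 scale (SE 0.211, limma adjusted p = 0.0160), with adjusted p up to 0.0264 over the 14 alternatives.

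Zbtb46 (ENSMUSG00000027583.13, chromosome 2, 181387762 to 181459426), a zinc finger factor that marks conventional dendritic cells and their committed progenitors, had 0.972 and 1.30 CPM in Ptip_KO, against 6.96 and 5.03 CPM in WT. Its mean in Ptip_KO was 0.189 times that of WT, the lowest ratio of the 10 factors. It fell by 1.70 on the log2 scale (SE 0.197, limma adjusted p = 0.0126), and by 2.39 with edgeR on recovered reads (adjusted p = 0.0228), where 5.34% of genes were called.

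Batf3 (ENSMUSG00000026630.9, chromosome 1, 191097847 to 191108945), an AP-1 factor needed for type 1 conventional cells, was low in all libraries. It had 18 and 16 reads in Ptip_KO (0.236 and 0.228 CPM) and 84 and 54 reads in WT (1.14 and 0.685 CPM). The groups did not overlap, but only WT replicate 1 reached 1 CPM, so the gene was not in the main test. In the fit without a filter, where 4.49% of 18276 genes were called, its log2 difference was -0.62 (SE 0.142) at a limma adjusted p of 0.0671.

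Zbtb16 (ENSMUSG00000066687.5, chromosome 9, 48654297 to 48836222) encodes PLZF, a factor of innate lymphoid precursors and natural killer T cells that is also expressed in myeloid progenitors. It had 0.972 and 1.54 CPM in Ptip_KO, against 3.50 and 4.87 CPM in WT. The groups did not overlap, and WT replicate 2 was the highest library, whereas for Id2, Irf4, Zbtb46 and Batf3 WT replicate 1 was the highest. Zbtb16 fell by 1.20 on the log2 scale (SE 0.216, limma adjusted p = 0.0369). The call was lost when rescaled to a common sum (adjusted p = 0.0690), by edgeR (0.0631) and without Ptip_KO replicate 1 (0.110), and held by DESeq2 (0.000718), which called 15.4% of genes.

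The 4 other factors, among them the 2 with the highest levels per kb, did not pass. Irf8 (ENSMUSG00000041515.9, chromosome 8, 120736358 to 120756694), which drives monocyte and dendritic progenitors and type 1 conventional cells, was at 917 and 754 CPM in Ptip_KO, against 985 and 887 CPM in WT. The groups overlapped, and the log2 difference was -0.17 (SE 0.138, limma adjusted p = 0.518). The ratio of Irf8 to Irf4 CPM was 207 and 177 in Ptip_KO, against 49.7 and 69.5 in WT (exact permutation p = 0.333, two-sided, the smallest possible). Zeb2 (ENSMUSG00000026872.17, chromosome 2, 44983632 to 45117395), a zinc finger repressor that acts on Id2 and promotes plasmacytoid cells and monocytes, was at 495 and 461 CPM in Ptip_KO, compared with 512 and 409 CPM in WT. These groups overlapped too, with a log2 difference of 0.06 (SE 0.135, limma adjusted p = 0.826) that turned to -0.10 without WT replicate 2.

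Runx2 (ENSMUSG00000039153.16, chromosome 17, 44495987 to 44814797), known for bone formation and for the exit of plasmacytoid cells from marrow, was at 40.1 and 30.6 CPM in Ptip_KO, against 39.6 and 41.3 CPM in WT. The groups overlapped, with a log2 difference of -0.20 (SE 0.142, limma adjusted p = 0.451). Spib (ENSMUSG00000008193.13, chromosome 7, 44525993 to 44532071), an ETS factor of plasmacytoid and B cells, was at 10.6 and 9.82 CPM in Ptip_KO, compared with 10.7 and 11.6 CPM in WT. Spib did not overlap between groups, but by a gap smaller than the spread within either, and its log2 difference was -0.12 (SE 0.118, limma adjusted p = 0.606). For these 4 factors the adjusted p lay between 0.202 and 0.991 over all alternatives. Antisense genes overlap Runx2 (Runx2os1 and Runx2os2, besides Supt3) and Zeb2 (Zeb2os), and whether counting used strand is not given in the sources used here, so reads of these pairs may be mixed. Genes on the same strand overlap Tcf4 (Gm24845), Zbtb46 (Gm22708) and Irf8 (Gm20388), and how shared reads were counted is not given either.

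In 6 of the 9 tested factors the groups did not overlap, beside 55.1% of all tested genes. The median log2 fold change of the 9 was -0.20, beside 0.00 for all tested genes. Per kb, the order of levels in Ptip_KO was Irf8 (368 CPM per kb), Zeb2 (118), Tcf4 (44.4), Runx2 (15.3), Id2 (6.10), Spib (3.66), Irf4 (0.913), Zbtb46 (0.441), Zbtb16 (0.330) and Batf3 (0.290). In WT it was Irf8 (412 CPM per kb), Zeb2 (114), Tcf4 (25.5), Id2 (23.1), Runx2 (17.5), Spib (4.0), Irf4 (3.42), Zbtb46 (2.33), Batf3 (1.14) and Zbtb16 (1.10). Neighbours whose levels lay within their summed SD were Zbtb46 with Zbtb16 and Zbtb16 with Batf3 in Ptip_KO. In WT they were Tcf4 with Id2, Spib with Irf4, Irf4 with Zbtb46, and Batf3 with Zbtb16. By median transcript length, Id2 thus stood below Runx2 in Ptip_KO, and next to Tcf4 in WT.

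The libraries also place other genes beside these 2 factors. By Euclidean distance between mean-centred log2 values over the 4 libraries, among 9984 other genes averaging at least 5 CPM, the 3 genes nearest to Tcf4 were Tns1 (distance 0.0341), Hyi (0.0508) and Gm10384 (0.0559). Tns1, which encodes tensin, a protein of focal adhesions, was at 37.9 and 38.6 CPM in Ptip_KO, against 20.0 and 23.8 CPM in WT. The 3 nearest to Id2 were Tbc1d9 (distance 0.0468, counts shared with the near-identical Gm10645), Pde3b (0.158) and Irf4 (0.186). Pde3b, a cyclic nucleotide phosphodiesterase, was at 5.07 and 5.58 CPM in Ptip_KO, compared with 22.2 and 19.1 CPM in WT. With 2 libraries a group, such nearness describes these 4 libraries alone.

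Most other regulators of dendritic cells did not pass. Of 32 listed, 30 were tested, and 1 rose (Bcl11a) and 3 fell (Runx3, Mycl and Cebpb), with a median log2 fold change of -0.07. Limma called 2.43% of all tested genes higher and 3.86% lower. With DESeq2, which called 15.4% of all tested genes, the counts were 2 and 7. With the replicate number as a block, where 1721 genes were called in all, 2 were called higher and 8 lower. Without a filter, where 821 genes were called in all, 1 was called higher and 5 lower. The counts also moved with either WT library left out, where more genes were called over all genes too. Runx3, which directs Langerhans cell and T cell fates, had 6.49 and 7.25 CPM in Ptip_KO, against 23.2 and 17.1 CPM in WT, and fell by 1.41 on the log2 scale (SE 0.169, limma adjusted p = 0.0143). Mycl, a Myc family gene of conventional dendritic cells controlled by Irf8, had 4.52 and 3.60 CPM in Ptip_KO, against 9.61 and 9.60 CPM in WT, and fell by 1.07 (SE 0.145, adjusted p = 0.0190). Cebpb, a factor of monocyte differentiation, had 88.4 and 103 CPM in Ptip_KO, against 198 and 194 CPM in WT, and fell by 1.03 (SE 0.104, adjusted p = 0.00933). In each of the 3 the Ptip_KO libraries were both below the WT libraries, and the call held over all 14 alternatives.

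Bcl11a, a zinc finger factor that promotes Tcf4 and the plasmacytoid fate, had 53.2 and 57.3 CPM in Ptip_KO, against 40.7 and 39.7 CPM in WT. It rose by 0.45 on the log2 scale (SE 0.0900, limma adjusted p = 0.0479). The call held in 8 of 14 alternatives and was lost among others with edgeR (adjusted p = 0.0501) and without either Ptip_KO library (0.281 at most).

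**Figure D3:**
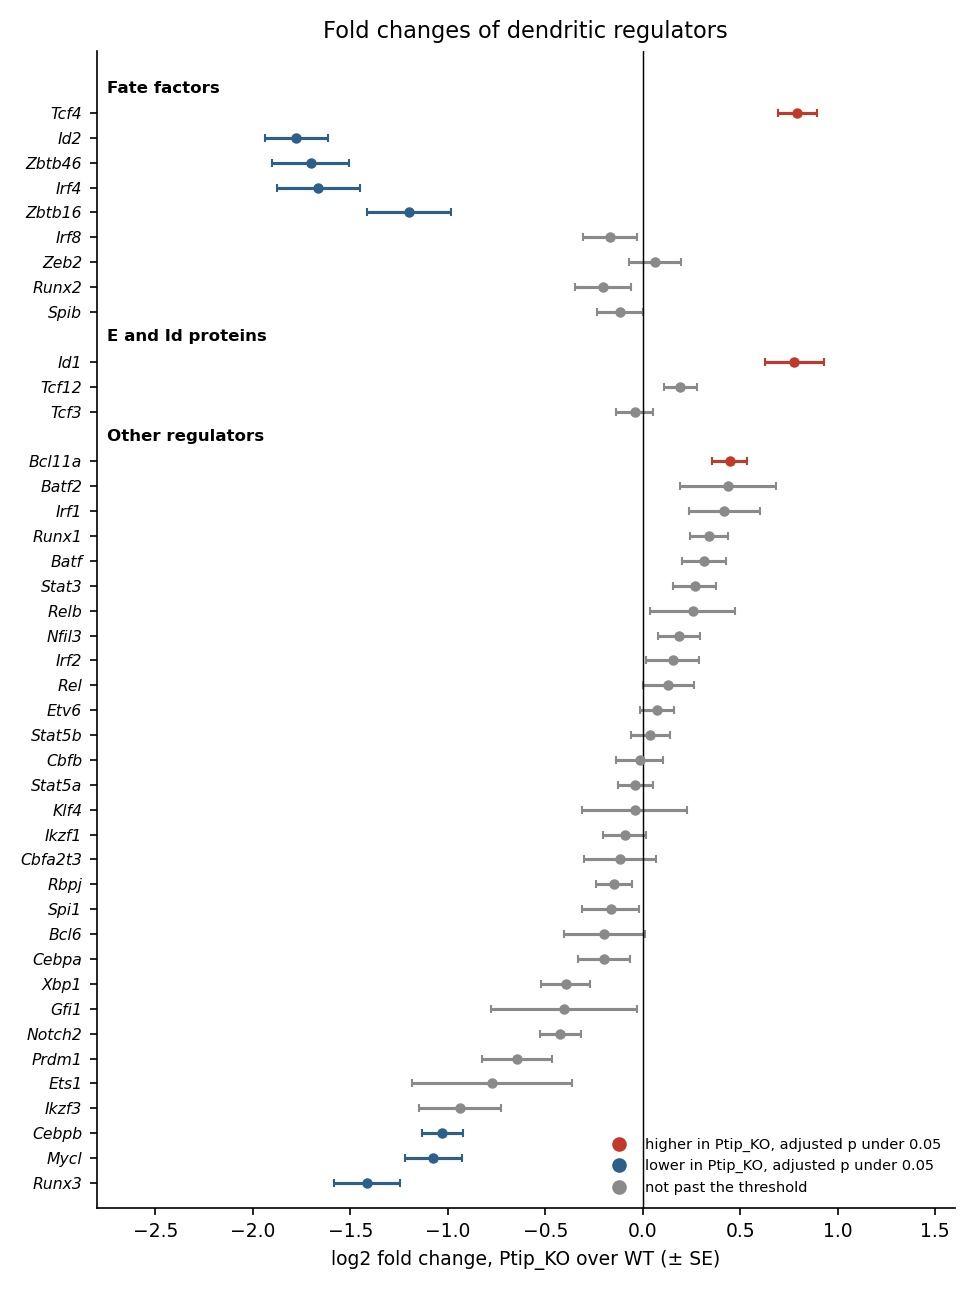
Log2 fold changes of Ptip_KO over WT with their SE from limma on log2(CPM + 1), for the 9 tested fate factors, the other tested E and Id protein genes and 30 other dendritic regulators. Red and blue mark genes higher and lower in Ptip_KO at an adjusted p under 0.05, and grey marks genes that did not pass; Id2, Zbtb46 and Irf4 lie lowest, and Tcf4 and Id1 highest.

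Genes characteristic of plasmacytoid cells were not called in the main test. Of 17 listed, 16 were in the table and 11 were tested. By limma 0 were called, and 4 had an unadjusted p under 0.05. The counts were 0 with edgeR and 3 with DESeq2, beside 5.34% and 15.4% of all tested genes. The median log2 fold change was -0.25. With the replicate number as a block, where 1721 genes were called in all, 1 was called lower. Calls also appeared with either WT library left out, in both directions without WT replicate 1 and only lower without WT replicate 2. Those fits leave 1 WT library and called more genes over all genes too. The count of 0 thus depended on using both WT libraries. Siglech, a sialic acid-binding receptor of plasmacytoid cells, was at 7.59 and 4.98 CPM in Ptip_KO, against 5.43 and 9.69 CPM in WT, so the groups overlapped. Of the 11 log2 values 8 were negative, among them the 4 with the smallest p. The 3 positive ones were those of Tlr7 (0.48), Tlr9 (0.30) and Irf7 (0.27), the nucleic acid sensors and the interferon regulator of plasmacytoid cells, at adjusted p of 0.295, 0.461 and 0.408 by limma. Ly6c2 was at 1360 and 1195 CPM in Ptip_KO, compared with 2059 and 1764 CPM in WT (limma adjusted p = 0.0768), and shares 98.3% of aligned bases with Ly6c1, so its counts are uncertain. Ly6d, a marker of lymphoid and plasmacytoid progenitors, was at 1.27 and 1.33 CPM in Ptip_KO, against 2.39 and 5.07 CPM in WT (adjusted p = 0.118). Dntt, the terminal transferase of lymphoid progenitors, was at 2.98 and 3.07 CPM in Ptip_KO, compared with 5.85 and 17.4 CPM in WT, and Bst2, a tethering protein of plasmacytoid cells, averaged 35.7 ± 1.14 CPM in Ptip_KO, against 42.7 ± 1.47 CPM in WT (SD, n = 2 each).

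Of 21 genes characteristic of conventional dendritic cells, 15 were tested, of which 6 fell and 0 rose by limma, with a median log2 fold change of -0.79. By edgeR 5 were called. Over all tested genes, limma called 3.86% lower and edgeR called 5.34% in either direction. Itgax, the gene of CD11c, had 6.59 and 5.05 CPM in Ptip_KO, against 17.7 and 16.5 CPM in WT, and fell by 1.42 on the log2 scale (limma adjusted p = 0.0107). Ciita, the activator of class II genes, fell by 1.85 (adjusted p = 0.0306), with 1.12 and 1.34 CPM in Ptip_KO, compared with 9.999 and 4.82 CPM in WT. The class II genes H2-Aa and H2-Eb1 fell by 1.86 and by 1.57 (adjusted p = 0.0218 and 0.0250). The called genes also included H2-Ab1 and Cd24a. Log2 values were negative in 13 of the 15 and positive in Sirpa and Kmo. Sirpa, an inhibitory receptor of type 2 conventional cells and other myeloid cells, was at 642 and 541 CPM in Ptip_KO, against 632 and 430 CPM in WT, so the groups overlapped. Kmo, a kynurenine hydroxylase, was at 43.6 and 39.7 CPM in Ptip_KO, against 28.9 and 30.6 CPM in WT, with a log2 difference of 0.47 that did not pass (limma adjusted p = 0.0525) and was called in 5 of 14 alternatives. Clec9a, a receptor for dead cells on type 1 conventional cells and their progenitors, averaged 6.64 ± 0.680 CPM in Ptip_KO, compared with 8.22 ± 0.617 CPM in WT (SD, n = 2 each).

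**Figure D4:**
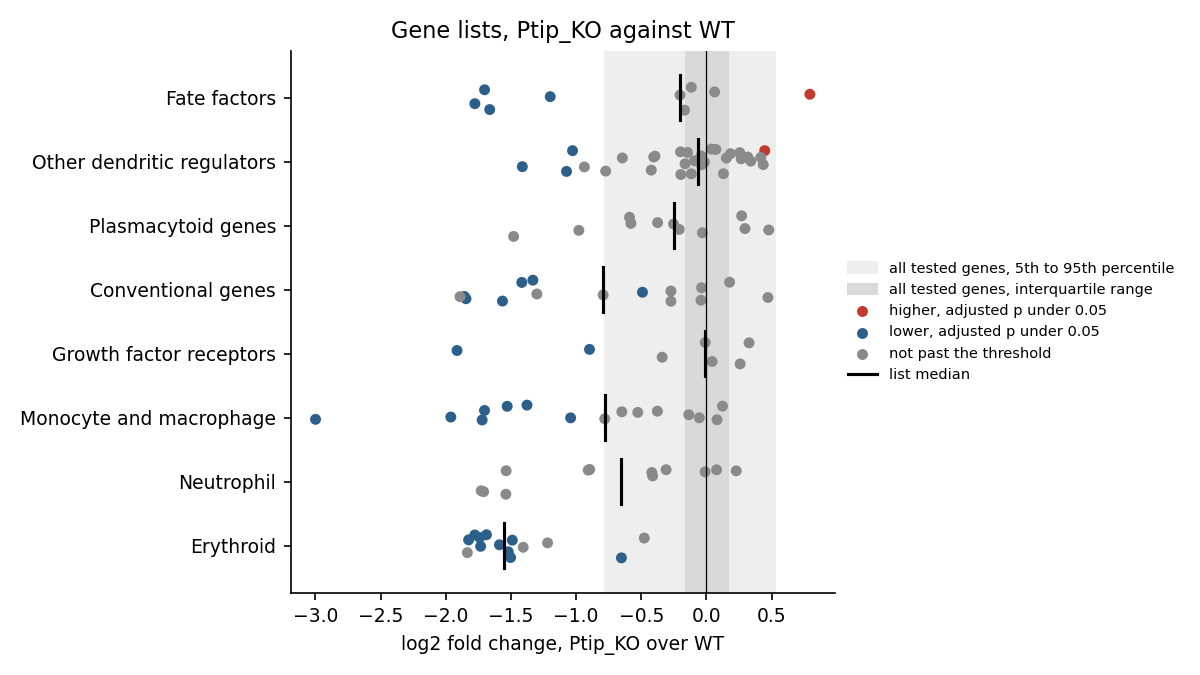
Log2 fold changes of Ptip_KO over WT for the tested genes of 8 lists; black bars are list medians and grey bands show all tested genes (5th to 95th percentile and interquartile range). The medians of 6 lists lie left of the interquartile band: fate factors (-0.20), plasmacytoid (-0.25), neutrophil (-0.66), monocyte and macrophage (-0.78), conventional (-0.79) and erythroid genes (-1.55). Those of other dendritic regulators (-0.07) and growth factor receptors (-0.01) lie inside it.

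Of 7 receptors through which growth factors act on dendritic progenitors, 2 fell and 0 rose, while 3.86% of all tested genes fell. Flt3, the receptor for the ligand that expands dendritic progenitors, had 42.8 and 34.5 CPM in Ptip_KO, against 67.6 and 77.8 CPM in WT. It fell by 0.90 on the log2 scale (SE 0.136, limma adjusted p = 0.0244). Kit, the stem cell factor receptor of early progenitors, had 14.4 and 16.1 CPM in Ptip_KO, against 49.5 and 73.1 CPM in WT, and fell by 1.91 (SE 0.191, adjusted p = 0.00908). Csf1r and Il3ra had log2 differences of 0.33 and 0.26 and did not pass by limma (adjusted p = 0.149 and 0.142), although DESeq2 called Csf1r (0.00317).

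Markers of other cells moved beside the factors. Over all tested genes, limma called 3.86% lower, and in either direction edgeR called 5.34% and DESeq2 called 15.4%. Of 15 tested monocyte and macrophage markers, 7 fell and 0 rose. Of these 7, C1qa, C1qb, C1qc and Maf were under 1 CPM in both Ptip_KO libraries, so they passed the filter through the WT libraries, where they were high. With the filter at 5 CPM the count was 3. The list had summed levels of 5114 to 6610 CPM in Ptip_KO, against 6552 to 11071 CPM in WT. Adgre1, the gene of F4/80, had 8.67 and 6.79 CPM in Ptip_KO, against 90.5 and 51.7 CPM in WT, higher in WT replicate 1 as Id2, Irf4 and Zbtb46 were. C1qa, C1qb and C1qc, the complement genes of tissue macrophages, were at no more than 0.407 CPM in Ptip_KO and at least 3.03 CPM in WT. Of the 18 monocyte and macrophage genes in the deposited table, 13 were lower in both Ptip_KO libraries than in both WT libraries. Over all tested genes, 55.1% did not overlap in either direction. Some abundant members of the list did overlap. Cd68 averaged 182 ± 24.3 CPM in Ptip_KO, compared with 175 ± 76.2 CPM in WT. Cx3cr1 averaged 165 ± 25.5 CPM in Ptip_KO, compared with 158 ± 39.8 CPM in WT. Ccr2 averaged 853 ± 186 CPM in Ptip_KO, compared with 897 ± 279.8 CPM in WT (SD, n = 2 each). Of 14 erythroid markers, 10 fell and 0 rose by limma, and edgeR called 5, with summed levels of 916 to 1225 CPM in Ptip_KO, compared with 2276 to 5020 CPM in WT. Of 12 neutrophil markers 0 were called by limma (DESeq2 called 3 and edgeR 0, and 5 had an unadjusted p under 0.05), and 10 of 12 log2 values were negative. Limma also called 2 lower without a filter, 2 with another scaling (median of ratios), 1 with the filter at 5 CPM and 1 with a replicate block. Those fits called 821, 794, 646 and 1721 genes in all. Calls appeared as well with either WT library or Ptip_KO replicate 1 left out. S100a9, a calcium-binding protein of neutrophils, was at 383 and 216 CPM in Ptip_KO, compared with 714 and 1242 CPM in WT (limma adjusted p = 0.0509). The sums of the list were 10860 to 11708 CPM in Ptip_KO, against 9694 to 14409 CPM in WT, most of it Mpo. The part of macrophage, neutrophil or erythroid RNA in the lower values of Id2, Irf4, Zbtb46 and Zbtb16 was not tested.

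B lineage cells share Spib, Tcf4 and Irf4 with dendritic cells. Of 11 B lineage markers, 3 were tested. Limma called 1 higher (Cd79b) and 1 lower (Cd22, which Gm29439 overlaps on the other strand), beside 2.43% and 3.86% of all tested genes. EdgeR called 0. The count was also 0 when rescaled to a common sum and without either Ptip_KO library. Their sums were 55.5 to 59.8 CPM in Ptip_KO, compared with 36.3 to 60.1 CPM in WT. Since WT replicate 2 stood apart in Xist and Ddx3y, the factors were also read without it: Tcf4 was then 0.90 higher in Ptip_KO, and Id2, Irf4, Zbtb46 and Zbtb16 had log2 fold changes of -1.99, -1.96, -1.90 and -1.01. These were called by limma in a fit with 1 WT library, where the spread came from the Ptip_KO pair alone and 13.1% of genes were called. Of 14 markers of T, natural killer and innate lymphoid cells, the cells in which Zbtb16 and Id2 are also known, 3 were tested. By limma, edgeR or DESeq2 0 were called, and 0 had an unadjusted p under 0.05. With the replicate number as a block, where 1721 genes were called in all, 1 was called lower. A call also appeared without WT replicate 1. The sums of the 14 markers were 39.1 to 57.3 CPM in Ptip_KO, compared with 57.0 to 81.1 CPM in WT. Basophil and mast cell markers, 6 in all, gave 0 calls by limma, edgeR or DESeq2, and 0 had an unadjusted p under 0.05. With the replicate block 2 of them were called lower, and a call also appeared without WT replicate 1. The sums of the 6 markers were 62.4 to 147.7 CPM in Ptip_KO, against 94.95 to 193 CPM in WT. At a count of 0 stood Cd3e in Ptip_KO replicate 1 and the plasmacytoid gene Klk1 in Ptip_KO replicate 2, and no other listed gene of the table in any library.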

How the data were processed

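Libraries were made from sorted cells with a stranded mRNA kit, per the labels' protocols. TopHat2 2.0.10, HTSeq 0.6.0, edgeR 3.8.6 and build mm10 appear in the submitters' processing notes, with no role for each. The authors deposited a normalized signal for each gene, which the file header names CPM. In each library 100% of values were whole multiples of the smallest within 0.01 read, so whole reads were recovered. On them edgeR 4.0.16 called 660 genes and DESeq2 1.42.0 called 1906. The column for WT replicate 2, headed WT_3, was matched by its sample's description. Symbols, positions and transcript lengths are from GENCODE M21 (GRCm38), and promoters are from RefSeq (GRCm38.p6).

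The main test was limma 3.58.1 (R 4.3.3) on log2(CPM + 1) for 12357 genes past the filter, with a trended prior, genotype only, two-sided, Benjamini-Hochberg at 0.05. It was checked on simulated data. Alternatives were both count tests, pseudocounts of 0.25 and 5, no filter or 5 CPM, 2 other scalings, a robust prior, a replicate block and each library left out. The ratio by fold changes of the count tests was added after seeing the data. The factors and gene lists were chosen with earlier results of these data known. Beside them, up to 4 genes per list with the smallest p, the sort genes and the 3 genes nearest to Tcf4 and to Id2 were named by rule. Siglech, Tlr7, Tlr9, Irf7, Sirpa, Kmo, Clec9a, H2-Ab1, Cd24a, Maf, Cd68, Cx3cr1, Ccr2, Mpo and Klk1 were named after their values were seen, as were genes of the closing section. Near-identical copies were sought with BLAST 2.17.0 (identity of 95% and above, covering 50% of the shorter transcript).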

Additional observations from a re-analysis of the deposited data

How the results depend on the processing

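The number of genes called by limma was 777 and moved to 1906 with DESeq2 and to 1721 with the replicate number as a block, and lay between 452 and 1620 with each library left out. The smallest count was without Ptip_KO replicate 1 and the largest without WT replicate 2. Of the 10 factors 5 were called, and 4 or 5 under every alternative run: Tcf4, Id2, Irf4 and Zbtb46 in all of them, and Zbtb16 in 10 of 13. The replicate block left the 5 called. Libraries with the same number in their titles deviated together from their group means (r = 0.332 across genes). With 2 libraries a group the deviations mirror each other, so the opposite pairing gave r = -0.332 by construction. No label ties the numbers, and the samples share only a number in their titles. Directions turned for genes that did not pass. With libraries left out, log2 differences ranged from -0.10 to 0.22 for Zeb2 (negative without WT replicate 2), -0.11 to 0.022 for Tcf3 (positive without Ptip_KO replicate 2 or WT replicate 1), -0.99 to 0.40 for Cd79a (positive without WT replicate 2), -0.0061 to 0.25 for Rora (negative without Ptip_KO replicate 2), and, each positive without Ptip_KO replicate 1, -1.12 to 0.068 for Il2rb, -1.19 to 0.078 for Fcer1a, -0.82 to 0.085 for Ms4a2 and -1.20 to 0.21 for Prss34 (also without WT replicate 2). Rescaled to a common sum, Tcf3 was at 0.0084. The cause was not tested. Rescaling to a common sum moved the median of all genes by less than 0.1 on the log2 scale.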

Other observations

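Among regulators and genes below the filter, chosen here after their values were seen, Zfp366, which encodes the dendritic cell factor DC-SCRIPT, had 7 and 8 reads in Ptip_KO (0.0920 and 0.114 CPM), against 73 and 68 reads in WT (0.990 and 0.862 CPM). In the limma fit without a filter its log2 difference was -0.80 (SE 0.105, adjusted p = 0.0133). Cadm1, an adhesion molecule of type 1 conventional dendritic cells, had 17 and 23 reads in Ptip_KO, against 64 and 72 reads in WT, with a log2 difference of -0.57 (adjusted p = 0.0448 in the same fit). Xcr1, the chemokine receptor of type 1 conventional dendritic cells, had 33 and 34 reads in Ptip_KO, against 55 and 68 reads in WT, and did not pass in that fit (log2 difference -0.31, adjusted p = 0.213). Cd209a, a lectin of monocyte-derived and type 2 conventional dendritic cells, had 17.8 and 1.98 CPM in the Ptip_KO libraries, compared with 32.7 and 21.8 CPM in the WT libraries, so the Ptip_KO libraries differed more from each other than the WT libraries did (limma adjusted p = 0.232).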
